A study of Homo sapiens with 24 samples.

Results

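The response of A2780 cells to TGF beta was read from 12 of the 24 arrays of the series: the 4 arrays of cells given TGF beta and the 8 arrays of serum-starved cells. Arrays were taken by their labelled treatment. A2780 is a human ovarian cancer line. It was used as pcDNA cells, transfected with the empty vector, and as Rab25 cells, which express Rab25, a small GTPase of recycling endosomes. Each of these is 1 transfected line, so clone and transgene cannot be told apart. All cells were kept without serum for 8 h; the treated cells then received TGF beta at 5 ng/ml, and the other arrays of the series held cells given EGF or IGF, each at 10 ng/ml, or fetal bovine serum. Each line had 1 TGF beta array and 2 starved arrays in each of 2 experiments. By the treatment protocol, exposure lasted 8 h in experiment 1 but 24 h in experiment 2; the sample names instead put TGF beta at 24 h in both. Starved cells are labelled 8 h in both experiments, so time in culture and TGF beta cannot be told apart in the comparison with starved cells. Arrays of EGF and IGF cells, taken at the labelled times of the TGF beta arrays, gave a comparison without starved cells.

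TGF beta is a secreted factor that binds a pair of serine/threonine kinase receptors, which phosphorylate SMAD2 and SMAD3. These join SMAD4, enter the nucleus and act with partner factors on target genes, among them SMAD7 and PMEPA1, which feed back on the pathway. In epithelial and carcinoma cells the factor is known for inducing extracellular matrix genes and genes of cell motility, for arresting growth in some cells, and for the switch from epithelial to mesenchymal character.

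Signal is given as deposited log2 values, in which a difference of 1 is a 2-fold difference. Each gene was read from the probe set with its highest mean signal in the series, which gave 11940 genes. Array medians were 7.20 to 7.35 in starved and 7.07 to 7.27 in TGF beta cells, with the lowest on the Rab25 TGF beta array of experiment 1. The SD of the difference between the 2 starved arrays of a line and experiment was 0.144 to 0.173 over genes. For the actin control probe sets, the gap of 3' over 5' signal differed by -0.08 between TGF beta and starved arrays (2-sided exact permutation p = 0.346; the smallest that 81 arrangements allow is 0.0123), and that of GAPDH by less than 0.01 (exact permutation p = 1). The labels do not say which arrays of an experiment came from separate cultures, so p-values measure the spread between these arrays, which may be in part technical. RNA came from whole cultures, where fewer cells of a type and less RNA per cell cannot be told apart.

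Identity markers were mixed. The lineage factor PAX8 (mean log2 signal over the 24 arrays 11.86), the keratins KRT7 (12.75), KRT8 (12.75) and KRT18 (13.99) and the folate receptor FOLR1 (10.88) stood above the median gene at 8.13. EPCAM (5.25), MUC16 (4.94) and EMX2 (4.96) of the same list were under the lower quartile of genes, 5.71. WT1 (7.05), MSLN (7.0) and MUC1 (6.18) lay between that quartile and the median. Of 11 fibroblast markers 2 lay under that quartile and DCN stood at 12.01; of 9 endothelial markers 3 lay under it, while CDH5 (11.09) and TIE1 (11.36) were high. Among 10 immune markers PTPRC (5.35), CD14 (5.31), CD68 (5.43) and CD163 (5.44) were under the quartile. The other immune markers lay between it and the median, the highest being FCER1G at 7.09. The mean level over the immune list was 5.66 to 5.88 on starved and 5.78 to 5.86 on TGF beta arrays, over the endothelial list 7.13 to 7.61 and 7.20 to 7.48, and over the fibroblast list 6.80 to 7.18 and 7.07 to 7.24. FAP, in the fibroblast list, was the 1 member of these 3 lists that passed the test.

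Over both lines and experiments, 185 of 11940 genes were higher and 228 lower on TGF beta than on starved arrays at a limma adjusted p under 0.05. This is 3.46% of genes tested (1.55% up, 1.91% down). Among these genes the largest rises were those of NEDD9, DACT1, PMEPA1, FAP and NOX4, and the largest falls those of FGFBP1, PTX3, KCNJ2 and THBD. A change of at least 2-fold was seen in 25 of the called genes, of which 21 rose and 4 fell. An unadjusted limma p under 0.05 was found for 1799 of the 11940 genes. All 4 TGF beta arrays lay above all 8 starved arrays for 59 of the called rises, and below them for 32 of the called falls; over all genes, 0.628% lay above and 0.461% below in this way. The balance of rises and falls moved with scaling: quantile normalization gave 226 rises and 180 falls, and centring each array on its median gave 260 and 115. The median of all genes was -0.02 as deposited and 0.03 after centring. Leaving out 1 array gave 211 calls without the pcDNA TGF beta array of experiment 2, 216 without the Rab25 TGF beta array of experiment 2 and 272 without the Rab25 starved array 2-1, and up to 437 otherwise. The limma fit over all 24 arrays called 191 genes; besides SMAD3, calls named here that it ended were those of BHLHE40, CAT, CCND2, CDH2, CDKN1B, CLDN1, COL6A3, COL7A1, CXCL8, CXCR4, DAB2, EDN1, ENG, ETS2, EVI2A, FBN1, FOSL1, GDF15, GREM1, ICAM1, IL11, ITGA6, KRT7, LAMB1, LMCD1, NRP1, PDGFB, PDLIM7, PLAU, SCG5, SFRP1, SPHK1, TGFBR3, THBS1, TRIB2 and WNT5A.

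PMEPA1, NEDD9 and DACT1 had been proposed as markers of the comparison with results of these arrays known, so their values describe it. PMEPA1 encodes a membrane adaptor that binds SMADs and restrains TGF-beta signalling. Its signal was 11.14 and 11.53 in TGF beta treated pcDNA cells (experiments 1 and 2) and 11.13 and 11.70 in Rab25 cells, against 9.02 to 9.51 (median 9.28) in starved cells. The groups were far apart and the starved arrays of the lines overlapped. The log2 fold change was 2.07 (SE 0.12, limma adjusted p = 1.84e-06), or 4.19-fold.

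NEDD9, a docking protein of focal adhesions that acts in cell migration, had the largest rise of the 185. TGF beta arrays read 9.69 and 11.12 in pcDNA and 8.80 and 10.46 in Rab25 cells; starved arrays read 6.75 to 8.72 with a median of 7.51. Starved pcDNA cells held more NEDD9 signal than starved Rab25 cells (7.83 to 8.72 against 6.75 to 7.19), and the lowest treated array, Rab25 in experiment 1, was only just above the highest starved one. The fitted change was 2.38 (SE 0.26, limma adjusted p = 0.000284). The other probe set of NEDD9 gave 1.04.

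DACT1, which binds Dishevelled and modulates WNT signalling, went from 6.06 to 6.78 (median 6.28) in starved cells to 7.59 and 9.20 in pcDNA and 7.48 and 9.35 in Rab25 cells. Both lines were alike within each experiment, and the arrays of experiment 2 stood well above those of experiment 1. Its log2 fold change was 2.07 (SE 0.22, limma adjusted p = 0.000273). The calls of all 3 markers held without any 1 of the 12 arrays.

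**Figure D1:**
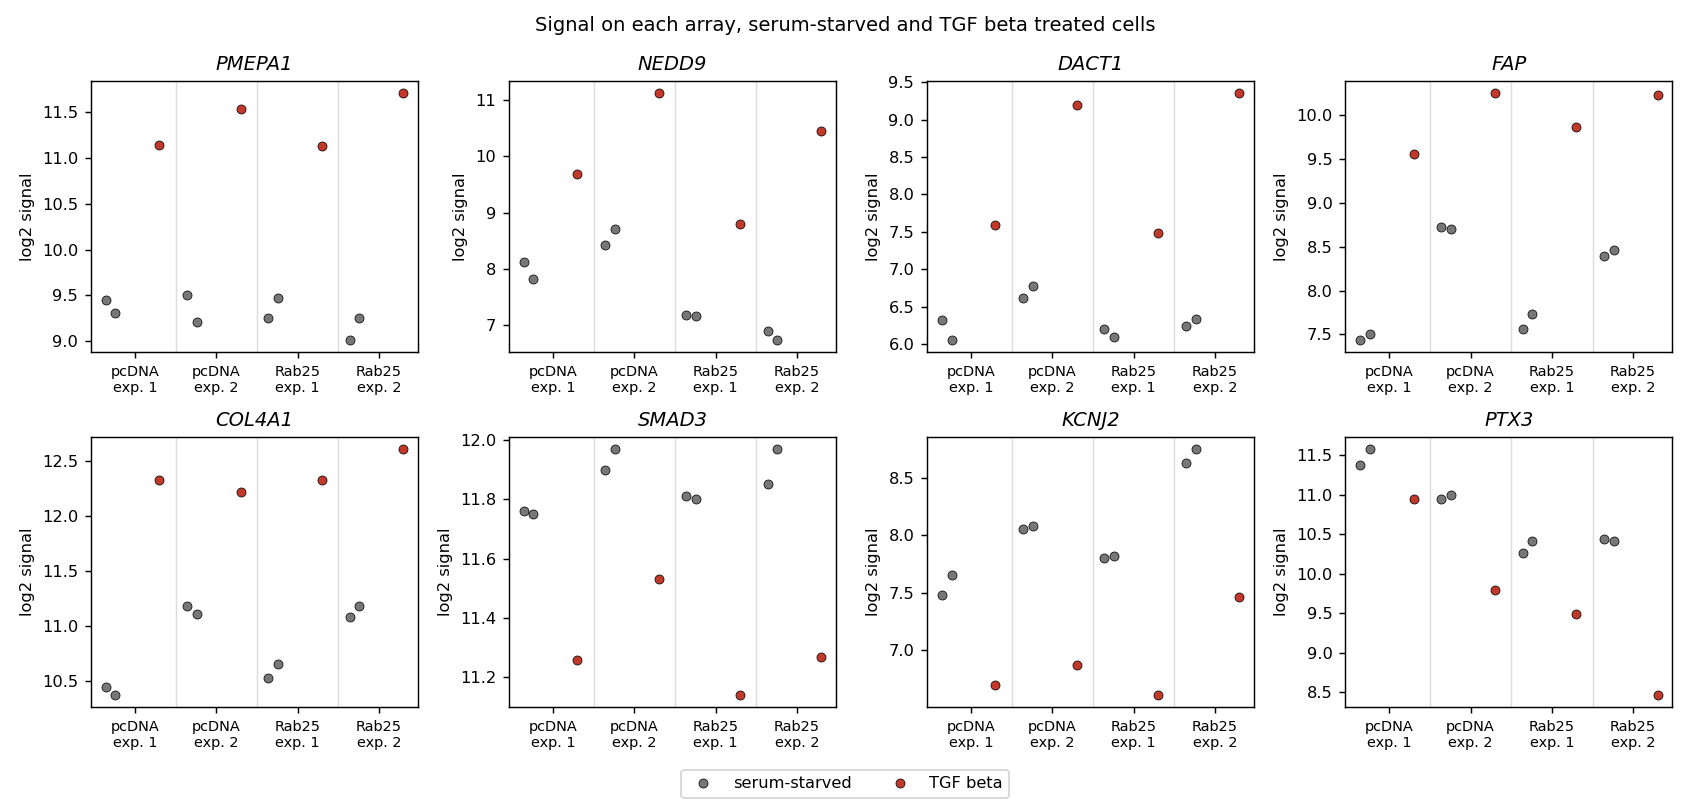
Log2 signal (vertical axis) of 8 genes on each of the 12 arrays, by line and experiment (horizontal axis); grey points are serum-starved arrays and red points TGF beta arrays. The TGF beta points lie above all starved points for PMEPA1, NEDD9, DACT1, FAP and COL4A1 and below all of them for SMAD3 and KCNJ2, while for PTX3 they lie below the starved arrays of their own line and experiment.

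Of 46 measured TGF-beta and SMAD target genes, 19 rose and 1 fell (43.5% called, against 3.46% of all genes), and the list's median log2 fold change was 0.21 against -0.02 for all genes. The list was written with earlier results of these data known, so it is no independent evidence of direction. Its median was 0.23 with quantile normalization and 0.26 with median centring. Without either TGF beta array of experiment 2, 13 rose.

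Feedback inhibitors were among the rises. SMAD7, which blocks the receptor and recruits ubiquitin ligases, read 9.75 on both pcDNA TGF beta arrays and 9.41 and 9.20 in Rab25 cells, against 8.09 to 9.42 (median 9.03) in starved cells. The groups overlapped, since starved pcDNA cells of experiment 1 were the highest starved arrays, yet each treated array exceeded the starved arrays of its own line and experiment. Its change was 0.64 (SE 0.11, limma adjusted p = 0.00814). FSTL3, a secreted inhibitor of activins, rose by 1.15 (SE 0.13, limma adjusted p = 0.000547) from 7.40 to 7.95 on starved arrays to 8.64, 9.25, 8.46 and 9.21. Outside this group of inhibitors, LTBP2, a matrix protein of the latent TGF-beta binding protein family, rose by 0.64 (SE 0.07). Its treated arrays read 10.91 to 11.68 and its starved arrays 10.36 to 10.98.

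CCN2, a secreted matricellular protein and classical target, moved little in size but evenly. Starved arrays ran from 12.90 to 13.59 and TGF beta arrays read 13.63, 14.08, 13.64 and 14.22, so every treated array was above every starved one. The change was 0.65 in each experiment and 0.65 overall (SE 0.04, limma adjusted p = 5.98e-06). TGFBI, a secreted matrix protein named for its induction by TGF beta, rose by 1.29 (SE 0.12) from 11.99 to 12.96 to values of 13.56 to 13.85. SOX4, an HMG-box transcription factor, rose by 1.61 (SE 0.15) from 10.03 to 10.62 to values of 11.51, 12.08, 11.84 and 12.29; its other probe sets gave 0.07 to 2.05.

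The metalloproteinase ADAM19 rose by 0.78 (SE 0.07), and the AP-1 subunit JUNB by 0.45 (SE 0.07). IL11, a cytokine of the IL-6 family, rose by 0.68 (SE 0.11), PDGFB, a growth factor of mesenchymal cells, by 0.53 (SE 0.09), and thrombospondin 1 (THBS1), which can activate latent TGF beta, by 0.57 (SE 0.13). The second IL11 probe set gave 0.04 and those of PDGFB -0.05 to 0.38, and both calls were lost with the median of probe sets. The THBS1 call was lost without any of 7 of the 12 arrays. LMCD1, a LIM-domain cofactor, rose by 1.34 (SE 0.29) and the Notch ligand JAG1 by 1.30 (SE 0.31, limma adjusted p = 0.0426). JAG1 lost its call without any of 9 arrays and with the median of probe sets, and its other probe sets ran from 0.00 to 1.27; LMCD1 lost its call without either TGF beta array of experiment 2 or either pcDNA starved array of that experiment. SPHK1 (0.42), ETS2 (0.43) and BHLHE40 (0.34) completed the rises; SPHK1 lost its call without either TGF beta array of experiment 2, ETS2 without 5 arrays and BHLHE40 without 8. DAB2, an endocytic adaptor, fell by 0.41 on the log2 scale (SE 0.06), with its other probe sets at -0.18 to -0.07; the call was lost with the median of probe sets.

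Some textbook targets did not pass. CDKN2B, the p15 cell cycle inhibitor, had a change of 0.07 at 5.25 to 5.70 on all 12 arrays, under the lower quartile of genes. CDKN1A, the p21 inhibitor, had -0.12 (limma adjusted p = 0.628) and MYC, which TGF beta lowers in many epithelial cells, 0.11 (limma adjusted p = 0.439; 95% confidence interval -0.02 to 0.24).

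Components of the pathway itself moved less. Of 39 measured ligands, receptors and SMADs 4 rose and 3 fell (17.9% called, against 3.46% of all genes), with a median of -0.02. Without the pcDNA TGF beta array of experiment 2, 2 rose, and without the Rab25 one of experiment 2, 1 fell. The ligand TGFB1 rose by 0.35 (SE 0.06, limma adjusted p = 0.00425), from 9.48 to 10.08 in starved cells to 10.00, 10.04, 10.35 and 10.25. The groups overlapped, and starved Rab25 cells were higher than starved pcDNA cells. Its other probe set gave -0.13, and the call was lost with the median of probe sets. TGFB2 had -0.42 (limma adjusted p = 0.207) and TGFB3 -0.08.

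Among receptors, endoglin (ENG), a co-receptor, rose by 0.54 (SE 0.08) and betaglycan (TGFBR3), which presents ligand, fell by 0.52 on the log2 scale (SE 0.13, limma adjusted p = 0.043), a call lost without any of 10 arrays. The signalling receptors TGFBR1 (0.06, at 5.11 to 5.66 on all 12 arrays) and TGFBR2 (-0.23, limma adjusted p = 0.588) did not pass. The ubiquitin ligase SMURF1 rose by 0.44 (SE 0.09), a call lost without either TGF beta array of experiment 2, and FKBP1A, which binds the type I receptor, by 0.20 (SE 0.05), a call lost without any of 8 arrays. GDF15, a divergent family member, fell by 0.38 on the log2 scale (SE 0.08) and lost its call without either TGF beta array of experiment 2.

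SMAD3, the receptor-activated SMAD, fell. Starved arrays read 11.75 to 11.97 (median 11.83) and TGF beta arrays 11.26, 11.53, 11.14 and 11.27. All treated arrays lay below all starved arrays. The change was -0.55 (SE 0.05, limma adjusted p = 0.000105), with other probe sets at -0.91 to -0.50. In the limma fit over all 24 arrays the adjusted p for SMAD3 was 0.288, and against EGF and IGF the difference was -0.12 (limma adjusted p = 0.556). SMAD2 (-0.09) and SMAD4 (-0.06) did not pass.

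**Figure D2:**
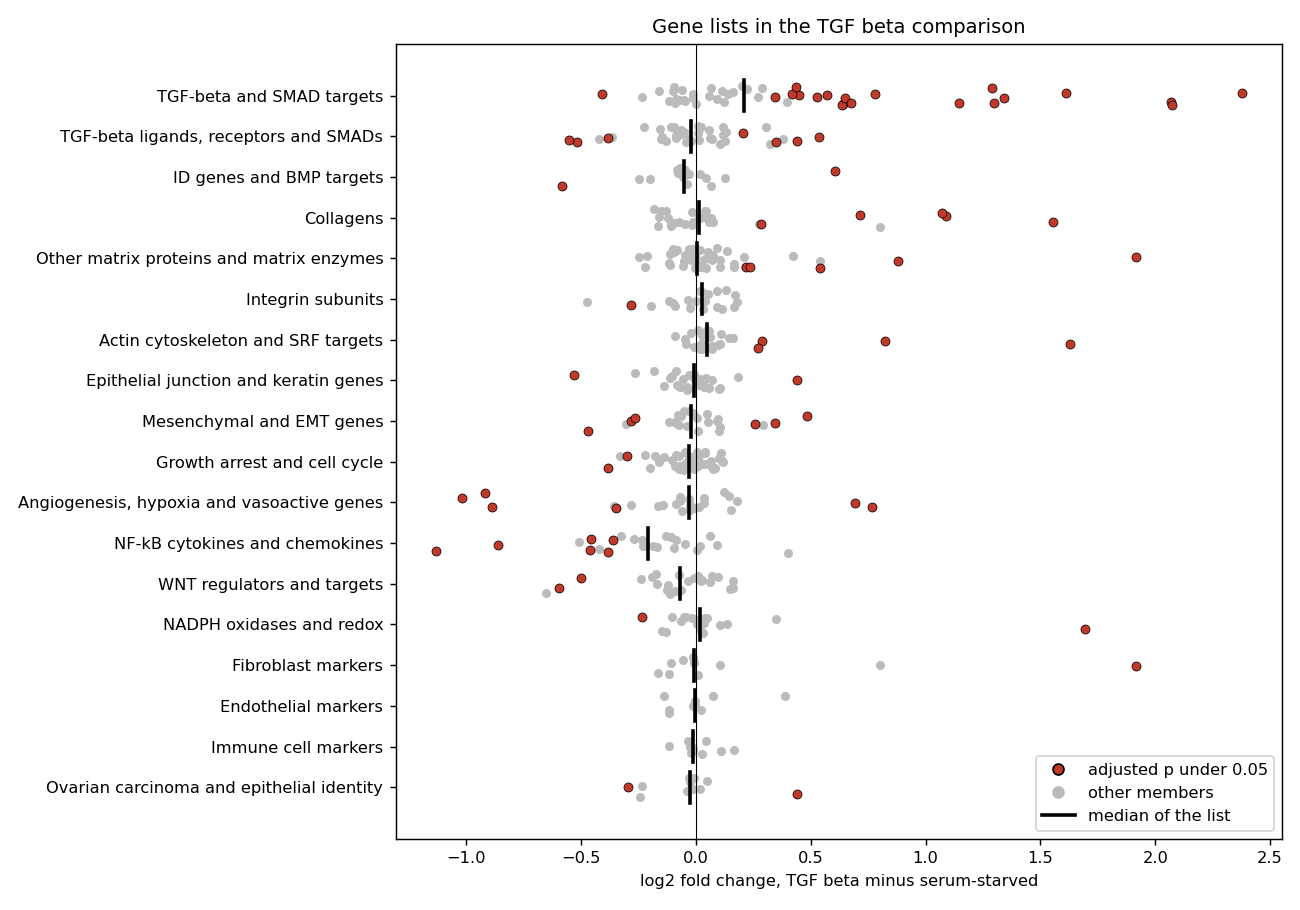
Log2 fold change of TGF beta over serum-starved cells (horizontal axis) for the measured members of 18 gene lists (vertical axis); each point is a gene, red where the limma adjusted p was under 0.05, and the black bar is the list median. The target list has its median at 0.21 with 19 rises, and the NF-kB list at -0.21 with 6 falls. Of all genes, 3.46% were called.

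Some matrix genes also rose, while most members of the matrix lists were not called. Of 29 measured collagen genes 5 rose and 0 fell (17.2% called, against 3.46% of all genes). The list's median was 0.02, against -0.02 for all genes. At an unadjusted p under 0.05, 7 collagen genes were up and 0 down, and without the pcDNA TGF beta array of experiment 1, 3 rose at the adjusted threshold. COL4A1 and COL4A2 encode the chains of the main type IV collagen of basement membranes. COL4A1 read 12.33 and 12.22 in pcDNA and 12.33 and 12.61 in Rab25 cells, against 10.37 to 11.18 (median 10.87) in starved cells. COL4A2 read 12.47, 12.40, 12.49 and 12.48 against 10.89 to 11.81 (median 11.40). Treated arrays of the pair were nearly level and above every starved array, whereas starved arrays were lower in experiment 1 than in experiment 2. The log2 fold changes were 1.56 (SE 0.10, limma adjusted p = 5.98e-06) and 1.09 (SE 0.12, limma adjusted p = 0.000284), and their second probe sets gave 1.54 and 1.23.

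The starts of these neighbours face away from each other, so 1 short interval serves as promoter of both, and it is shown because both genes rose. In the RefSeq promoter table (GRCh38.p14) it spans 126 bases at chr13:110307158-110307283, between the start of COL4A1 on the minus strand and that of COL4A2 on the plus strand. It is printed on the plus strand with the CCAAT word and the GC box GGGCGG in capitals.
COL4A1 and COL4A2: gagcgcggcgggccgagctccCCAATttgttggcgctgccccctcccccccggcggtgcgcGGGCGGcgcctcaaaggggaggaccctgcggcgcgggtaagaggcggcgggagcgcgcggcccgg
DACT1 is shown as the only one of the 3 markers whose promoter window held the word CAGACA, which contains the CAGA box bound by SMAD3. The 250 bases before its start, plus strand, are chr14:58633811-58634060 of the same build, with CAGACA in capitals at 19 bases before the start.
DACT1: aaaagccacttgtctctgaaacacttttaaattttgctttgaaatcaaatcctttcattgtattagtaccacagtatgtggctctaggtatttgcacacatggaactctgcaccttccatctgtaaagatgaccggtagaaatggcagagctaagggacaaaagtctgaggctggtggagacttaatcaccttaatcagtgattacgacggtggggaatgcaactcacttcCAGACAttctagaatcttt
Promoters of 250 bases were found for 9593 of the 11940 genes, 151 of the 185 rises and 182 of the 228 falls. On either strand CAGACA stood in 10.7% of all promoters, in 11.3% of those of rises and in 6.04% of those of falls. The AP-1 element TGACTCA stood in 3%, 3.31% and 2.2%, CCAAT in 35.8%, 31.8% and 36.3%, and GGGCGG in 60.5%, 65.6% and 65.9%. The palindrome GTCTAGAC, which shares the letters AGAC with CAGACA, stood in 0.156% of all promoters and in 0 of those of called genes. A match is a description of letters, not of a bound site.

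COL5A1, a fibrillar collagen chain, differed in level between the lines. Starved arrays read 9.08 to 9.48 in pcDNA and 6.53 to 7.08 in Rab25 cells, and TGF beta arrays 11.10 and 10.08 in pcDNA and 7.85 and 7.35 in Rab25 cells. Within each line the treated arrays were higher, while over both lines the groups overlapped. The change was 1.07 (SE 0.15, limma adjusted p = 0.00252), but other probe sets gave 0.40 and 0.71 and the call was lost with the median of probe sets. COL6A3 (0.72, lost without any of 9 arrays) and COL7A1 (0.28, lost without any of 3) also rose, and COL1A1 had 0.80 (limma adjusted p = 0.0525).

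Of 53 other matrix proteins and matrix enzymes 5 rose and 0 fell (9.4% called, against 3.46% of all genes), with a median of 0.01. Without the Rab25 starved array 2-2 or the Rab25 TGF beta array of experiment 2, 3 rose. FAP, a membrane serine protease known from activated fibroblasts, led them. It read 9.56 and 10.25 in pcDNA and 9.87 and 10.23 in Rab25 cells, against 7.44 to 8.72 (median 8.06) in starved cells, so all treated arrays were higher. The change was 1.92 (SE 0.11, limma adjusted p = 1.84e-06). Of the 11 fibroblast markers FAP alone passed in this fit, and 2 were up and 0 down at an unadjusted p under 0.05; COL1A1, another member, had 0.80 (limma adjusted p = 0.0525), and DCN had -0.06, COL3A1 -0.11, POSTN -0.12 and LUM -0.01.

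SERPINE2, a protease inhibitor, rose by 0.88 (SE 0.10) and the basement membrane chain LAMB1 by 0.54 (SE 0.07). PLAU, the urokinase protease, rose by 0.24, a call lost without any of 8 arrays, and the microfibril gene FBN1 by 0.22, a call lost without any of 5. Fibronectin (FN1), at 14.13 to 15.01 in starved cells, had 0.11 (limma adjusted p = 0.378, 95% confidence interval -0.01 to 0.22). Its other probe sets gave 0.05 to 0.32, and those of lowest mean signal (9.18 and 8.02) gave 0.32 and 0.28. Of 21 integrin subunits 0 rose and ITGA6 fell by 0.28 on the log2 scale, a call lost without any of 9 arrays and with median centring; 4.8% called is near the 3.46% of all genes.

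Actin cytoskeleton and serum response factor targets gave 4 rises and 0 falls among 27 (14.8% called, against 3.46% of all genes), with a median of 0.05. TAGLN (transgelin), an actin-binding protein of smooth muscle, was the largest. TGF beta arrays read 8.21 and 7.75 in pcDNA and 8.69 and 9.17 in Rab25 cells, against 6.37 to 7.32 (median 6.75), with no overlap. Its change was 1.63 (SE 0.13, limma adjusted p = 2.87e-05). TUFT1 rose by 0.82 (SE 0.16), TPM1 (tropomyosin) by 0.29 (SE 0.07) and PDLIM7 by 0.27 (SE 0.06). TPM1 lost its call without any of 8 arrays, TUFT1 without either TGF beta array of experiment 2 and PDLIM7 without either pcDNA one; the list held 2 rises without either pcDNA TGF beta array or the Rab25 one of experiment 2.

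Epithelial and mesenchymal genes moved in both directions. Of 26 mesenchymal genes 3 rose and 3 fell (23.1% called, median -0.02). Of 28 epithelial junction and keratin genes 1 rose and 1 fell (7.1% called, median -0.01), where 3.46% of all genes were called. N-cadherin (CDH2) rose by 0.34 (SE 0.08, limma adjusted p = 0.0301), from 11.58 to 11.94 to 11.97 to 12.18, a call lost without any of 7 arrays. WNT5B (0.49) and WNT5A (0.26) rose too, calls that WNT5B lost without either TGF beta array of experiment 2 and WNT5A without any of 9. The EMT factors TWIST1 and ZEB2 fell by 0.28 (SE 0.05) and 0.47 (SE 0.10) on the log2 scale, and the AP-1 subunit FOSL1 by 0.26, a call lost without any of 10 arrays and under both other scalings. TWIST1 read 9.14 to 9.39 on TGF beta and 9.41 to 9.70 on starved arrays, so the groups did not overlap but were close. The TWIST1 call was lost without the pcDNA TGF beta array of experiment 2 and the ZEB2 call without any of 3 arrays; the other ZEB2 probe set gave -0.06. Without the Rab25 TGF beta array of experiment 2, 0 mesenchymal genes rose, and without the pcDNA one 0 fell.

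Vimentin (VIM) was at 15.18 to 15.24 on all 12 arrays with a change of 0.00 (95% confidence interval -0.08 to 0.09). E-cadherin (CDH1) was at 5.21 to 5.72 on all 12 arrays, under or near the lower quartile of genes, with a change of 0.06 (limma adjusted p = 0.843). The tight junction gene CLDN1 fell by 0.53 on the log2 scale (SE 0.09) and keratin 7 (KRT7) rose by 0.44 (SE 0.08). CLDN1 lost its call without either TGF beta array of experiment 2; KRT7 lost its call without the pcDNA TGF beta array of experiment 1, and its other probe set gave 0.07. PAX8 fell by 0.29 on the log2 scale (SE 0.06), with its other 6 probe sets at -0.45 to -0.13; the call was lost without the Rab25 TGF beta array of experiment 2 with median centring and with the median of probe sets.

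BMP-related genes showed 1 rise and 1 fall among 16 (12.5% called, against 3.46% of all genes). The BMP antagonist GREM1 rose by 0.61 (SE 0.10, limma adjusted p = 0.0046) and the ligand BMP4 fell by 0.58 on the log2 scale (SE 0.11), a call lost without either TGF beta array of experiment 2. The inhibitors of differentiation ID1 (-0.20, limma adjusted p = 0.3), ID2 (0.02) and ID3 (-0.06) did not pass. Of 24 WNT regulators and targets 0 rose and 2 fell (8.3% called, against 3.46% of all genes). These were the receptor FZD1, down by 0.50 on the log2 scale (SE 0.06), and the secreted antagonist SFRP1, down by 0.59 (SE 0.15). The other FZD1 probe set gave -0.08, and the SFRP1 call was lost without any of 11 arrays and under both other scalings. DACT1, WNT5A and WNT5B, which rose, and the R-spondin receptor LGR4, which fell, were not in this list. Of 39 growth arrest and cell cycle genes 0 rose and 2 fell (5.1% called, near the 3.46% of all genes), with a median of -0.03. The inhibitor CDKN1B fell by 0.30 and cyclin D2 (CCND2) by 0.38 on the log2 scale, calls lost without any of 9 and 10 arrays. The CDKN1B call was also lost with median centring, and the CCND2 call with the median of probe sets. The other CCND2 probe sets gave -0.06 and 0.02. At an unadjusted p under 0.05, 0 genes of that list were up and 3 down.

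The potassium channel gene KCNJ2 fell in every line and experiment. Starved arrays read 7.48 to 8.75 (median 7.94) and TGF beta arrays 6.70 and 6.87 in pcDNA and 6.61 and 7.46 in Rab25 cells. Every treated array lay below every starved one. The change was -1.13 (SE 0.10, limma adjusted p = 4.66e-05). FGFBP1, which releases fibroblast growth factors from the matrix, had the largest fall of the 228 genes, -1.25 (SE 0.26, limma adjusted p = 0.0198). Its starved arrays read 7.48 to 8.98 and its TGF beta arrays 6.27, 7.16, 6.40 and 7.72. These overlapped, and the call was lost without the pcDNA TGF beta array of experiment 1.

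Inflammatory mediators fell or did not pass. Of 24 NF-kB cytokines and chemokines 0 rose and 6 fell, with a median of -0.21; at an unadjusted p under 0.05, 0 were up and 12 down. Experiment 1 alone gave 0 rises and 2 falls with a median of -0.33, and experiment 2 alone 1 rise and 4 falls with a median of -0.11. CCL20, a chemokine picked after its values were seen, had -0.19 in experiment 1 and 1.00 in experiment 2 (limma interaction adjusted p = 0.00754), and 0.40 over both (limma adjusted p = 0.338). The median was -0.26 to -0.13 with 1 of the 12 arrays left out, and it was -0.19 and -0.16 after quantile normalization and median centring. PTX3, a secreted pentraxin of innate immunity, read 10.95 and 9.79 in pcDNA and 9.49 and 8.46 in Rab25 TGF beta cells, against 10.26 to 11.58 (median 10.69). The pcDNA array of experiment 1 was within the starved range, but each treated array was below the starved arrays of its own line and experiment. The change was -1.13 (SE 0.17, limma adjusted p = 0.00371).

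CSF3, the granulocyte colony-stimulating factor, read 9.09, 7.98, 8.71 and 8.08 on TGF beta arrays against 8.79 to 9.83 (median 9.36). Its fall of 0.86 on the log2 scale (SE 0.08, limma adjusted p = 9.15e-05) was of like size in experiments 1 and 2 (-0.82 and -0.91). IL1B, at 13.56 to 14.26 in starved cells, fell by 0.38 (SE 0.06), CXCL8 by 0.46 (SE 0.10), the NF-kB inhibitor TNFAIP3 by 0.46 (SE 0.09) and the adhesion molecule ICAM1 by 0.36 (SE 0.07) on the log2 scale. CXCL8 lost its call without any of 3 arrays, ICAM1 without any of 2 and TNFAIP3 without the Rab25 TGF beta array of experiment 2; without the Rab25 TGF beta array of experiment 1 the list held 4 falls.

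Vascular and hypoxia genes gave 2 rises and 4 falls among 25 (24.0% called, against 3.46% of all genes). The vasodilator peptide ADM fell by 0.89 on the log2 scale (SE 0.09), thrombomodulin (THBD), an anticoagulant receptor, by 1.02 (SE 0.15), RGCC, a regulator of cell cycle, by 0.92 (SE 0.07) and the semaphorin and VEGF co-receptor NRP1 by 0.35 (SE 0.08). RGCC read 8.73 to 9.64 on starved and 7.63, 8.22, 8.42 and 8.82 on TGF beta arrays. The vasoconstrictor peptide EDN1 (0.69, SE 0.15) and the co-receptor NRP2 (0.77, SE 0.08) rose. NRP1 lost its call without any of 8 arrays, with median centring and with the median of probe sets, and EDN1 without the Rab25 TGF beta array of experiment 2.

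The remaining large changes did not fall together in 1 list. NOX4, an NADPH oxidase that makes hydrogen peroxide, read 7.63 and 9.50 in pcDNA and 9.54 and 10.14 in Rab25 cells against 6.54 to 8.31 (median 7.70), a rise of 1.69 (SE 0.18, limma adjusted p = 0.000284). The pcDNA array of experiment 1 was inside the starved range, and starved Rab25 cells were higher than starved pcDNA cells. Of 19 measured NADPH oxidase and redox genes, NOX4 alone rose and catalase (CAT) alone fell (10.5% called, against 3.46% of all genes). The fall of catalase was 0.23 on the log2 scale. FERMT1 (kindlin-1, an integrin activator) rose by 1.15 (SE 0.07), the lysosomal transporter SLC46A3 by 1.23 (SE 0.08), the thiamine transporter SLC19A2 by 1.14 (SE 0.20) and INAVA by 1.45 (SE 0.19). The call of catalase was lost without any of 3 arrays and with median centring. CITED2, a binding partner of CBP and p300, fell by 0.68 on the log2 scale (SE 0.05), the R-spondin receptor LGR4 by 0.81 (SE 0.08), and the antiproliferative factor TOB1 by 0.74 (SE 0.12), each with all TGF beta arrays below all starved arrays. VIPR1 (-0.87), the transcription factor FOXF1 (-0.77), DEPP1 (-0.76), PLPP3 (-0.71), EVI2A (-0.69) and the pseudokinase TRIB2 (-0.68) also fell. DEPP1 lost its call without the pcDNA TGF beta array of experiment 2 and with the median of probe sets (-0.41), and its other probe set gave -0.06.

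The response was compared between experiments, which per the protocol differ in exposure. It differed for 36 genes (0.302% of those tested; limma interaction, adjusted p under 0.05): 28 (0.235%) had a higher and 8 (0.0670%) a lower log2 fold change in experiment 2, and 9 had opposite signs in the experiments. JAG1 went from 0.27 to 2.33, and the difference of 2.07 (SE 0.20) had a limma adjusted p of 0.00126. Its TGF beta arrays read 9.41 and 9.18 in experiment 1 and 10.14 and 10.17 in experiment 2, while starved arrays read 8.83 to 9.37 and 7.62 to 8.01. The gap widened on both sides: treated arrays were higher and starved arrays lower in experiment 2. LMCD1 had 0.39 and 2.29 (difference 1.89), with starved arrays at 6.47 to 7.06 in both. VDR, the vitamin D receptor, had 0.39 and 1.57, SLC19A2 0.48 and 1.81, TUFT1 0.33 and 1.31, SOX4 1.15 and 2.07 and DACT1 1.36 and 2.78.

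Other genes had their larger change in experiment 1. SPOCK1, a secreted proteoglycan, had a log2 fold change of 2.49 there against 0.21 in the other experiment; for this difference of -2.28 (SE 0.30) the limma adjusted p was 0.00754. Its TGF beta arrays read 9.99 and 11.45 in experiment 1 and 8.73 and 9.51 in experiment 2, against starved arrays of the same line at 7.20 to 7.45 and 9.07 to 9.19, then 8.41 to 8.53 and 9.23 to 9.46. PTPRK, a receptor phosphatase, had 1.10 and 0.14; its call over both experiments was lost without any of 9 arrays. COL4A2 (1.47 and 0.71) and TGFBI (1.66 and 0.92) also had the smaller rise in experiment 2, where starved cells had more of both. COL4A1 showed 1.84 and 1.28 without passing the test of the difference (limma adjusted p = 0.152).

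Falls differed too. FGFBP1 had -2.05 in experiment 1 and -0.45 in experiment 2, and SFRP1 -1.05 and -0.14, whereas TOB1 (-0.37 and -1.10) and SERTAD2 (-0.28 and -1.04) fell further in experiment 2. ADAMTS5, a proteoglycan-degrading enzyme, went from -0.25 to 1.33, a difference of 1.58 (SE 0.13) with a limma adjusted p of 0.000998, and the potassium channel gene KCNK3 from -0.21 to 0.89. KDR, the VEGF receptor, had 0.01 and 0.77, at a signal of 6.54 and 6.55 on the 2 TGF beta arrays of experiment 2 and 5.63 to 6.00 in starved cells. The count of differences was 94 without the pcDNA TGF beta array of experiment 1, and 20 and 18 without the Rab25 TGF beta arrays of experiments 1 and 2.

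**Figure D3:**
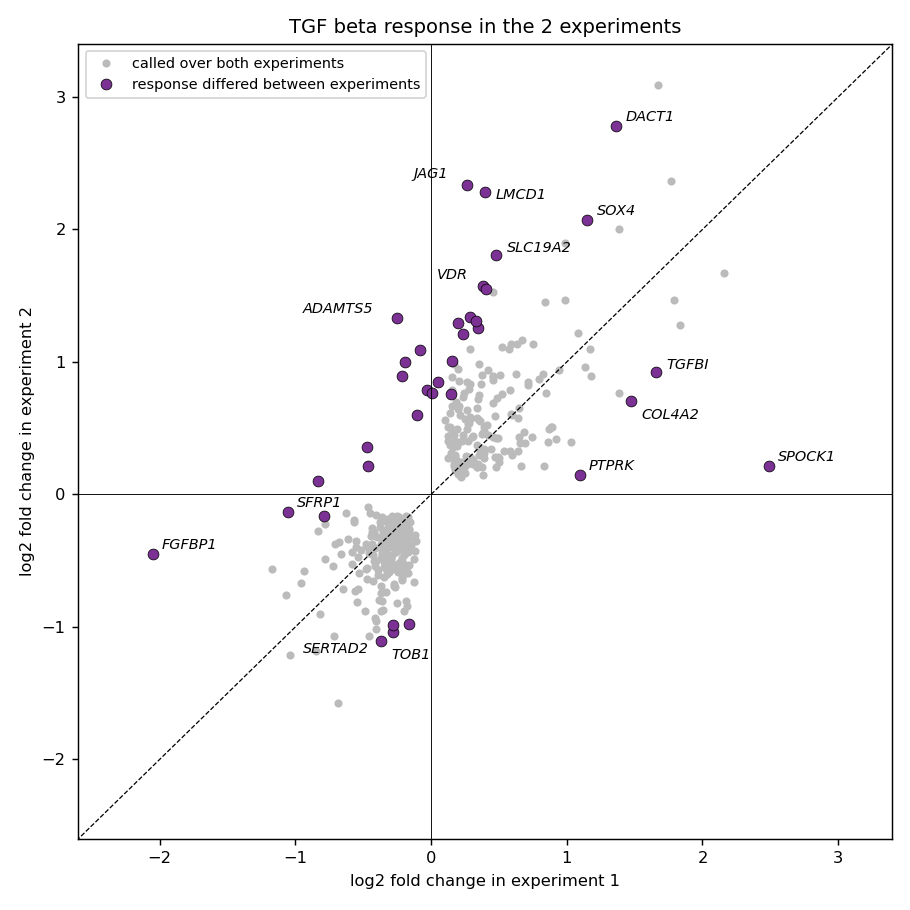
Log2 fold change of TGF beta over serum-starved cells in experiment 1 (horizontal axis) and experiment 2 (vertical axis), over both lines; grey points are genes called over both experiments, purple points the 36 genes whose response differed between experiments, and the dashed line marks equal change. JAG1, LMCD1 and DACT1 lie above the line and SPOCK1, PTPRK, TGFBI and COL4A2 below it.

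Between lines, 0 genes passed the limma test of a difference in response (0% of those tested; lowest adjusted p 0.424), and 926 had an unadjusted p under 0.05. The test had 1 TGF beta array per line in each experiment, so a p above the threshold does not show equal responses. For PMEPA1 the Rab25 minus pcDNA difference was 0.20 (95% confidence interval -0.32 to 0.73), for NEDD9 0.50 (-0.64 to 1.63), for FAP 0.20 (-0.27 to 0.68) and for KCNJ2 -0.19 (-0.61 to 0.23). Tested within a line, 84 genes passed in pcDNA cells (0.704%; 46 rises, 0.385%, and 38 falls, 0.318%) and 168 in Rab25 cells (1.41%; 72 rises, 0.603%, and 96 falls, 0.804%). This order turned with array quality weights, which gave 241 and 47, and with each line fitted alone, which gave 93 and 57. PMEPA1 had 1.97 and 2.17, TAGLN 1.41 and 1.85, NOX4 1.49 and 1.90, and COL5A1 1.31 and 0.84 in pcDNA and Rab25 cells. SCG5, a secretory granule chaperone, had 0.29 and 0.90 (difference 0.60, SE 0.13, limma adjusted p = 0.5), one of the lowest p values for a higher response in Rab25 cells. EFNB3, an ephrin ligand, had 0.06 and -0.61 (difference -0.68, SE 0.10, limma adjusted p = 0.424). Without the Rab25 TGF beta array of experiment 2, 8 genes passed, and without that of experiment 1, 1 gene passed.

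**Figure D4:**
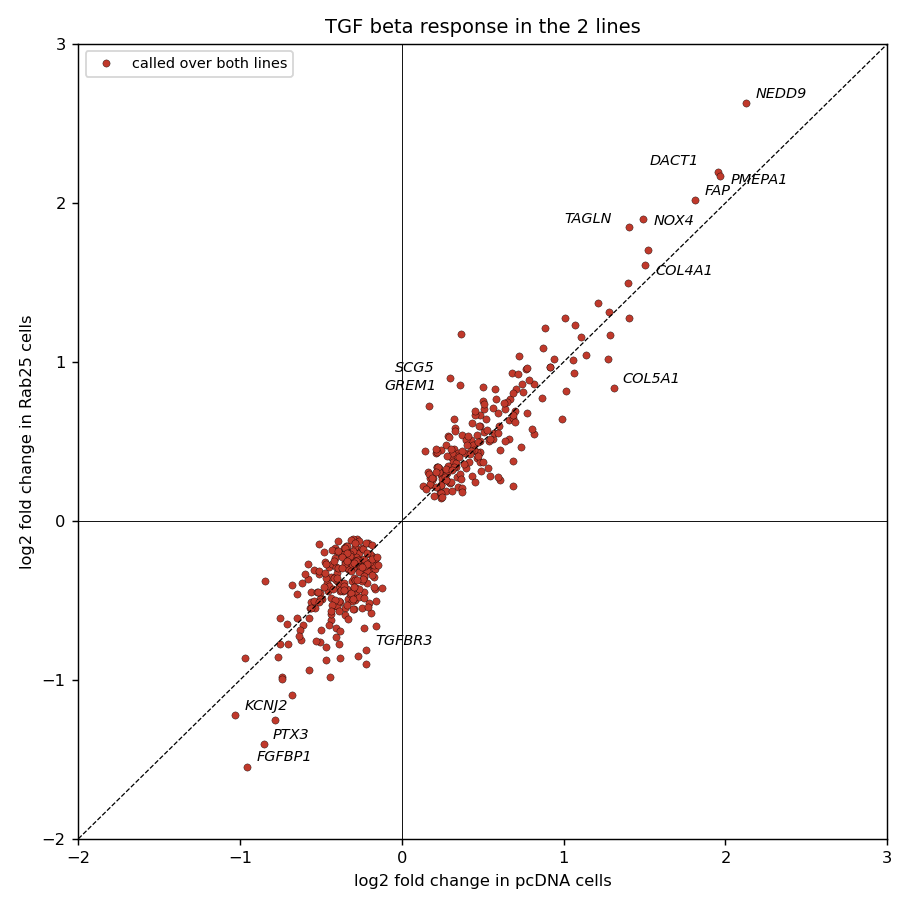
Log2 fold change of TGF beta over serum-starved cells in pcDNA cells (horizontal axis) and Rab25 cells (vertical axis) for the 413 genes called over both lines; the dashed line marks equal change. The genes were chosen for their change over both lines, which by itself places points near the dashed line; NEDD9 lies at 2.13 and 2.63 and FGFBP1 at -0.96 and -1.55.

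The comparison with EGF and IGF used treated arrays alone. TGF beta cells differed from the mean of EGF and IGF cells in 1018 genes (8.53%; limma, adjusted p under 0.05), of which 362 were higher (3.03%) and 656 lower (5.49%), and 40 differed at least 2-fold. This comparison shares the 4 TGF beta arrays with that against starved cells, so the values of each are given side by side. Of the 413 genes called against starved cells, 263 (63.68%) also passed here with the same sign. Because the TGF beta arrays are shared, this overlap is not independent evidence. After quantile normalization 462 were higher and 498 lower, and after median centring 502 and 414. Without the pcDNA TGF beta array of experiment 2, 649 passed.

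NEDD9 and PMEPA1 were higher with this reference too. NEDD9 was 2.76 higher (SE 0.25, limma adjusted p = 0.000151), with EGF and IGF arrays at 6.62 to 8.33, and PMEPA1 was 2.13 higher (SE 0.10), with EGF and IGF arrays at 8.77 to 9.83. NOX4 was 2.44 higher (SE 0.23) than with EGF and IGF and 1.69 higher than in starved cells. EGF and IGF arrays read 6.30 to 7.23 for NOX4, and in each line and experiment they lay below the starved arrays. CXCR4, a chemokine receptor, was 2.59 higher (SE 0.29, limma adjusted p = 0.000519) and 0.92 higher than in starved cells (SE 0.11). Its TGF beta arrays read 9.93, 9.78, 10.98 and 10.80, its starved arrays 8.36 to 10.37 and its EGF and IGF arrays 6.58 to 9.43. THBS1 was 1.23 higher (SE 0.22), against 0.57.

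Other differences were smaller than against starved cells. TAGLN was 0.92 higher than with EGF and IGF (SE 0.19, limma adjusted p = 0.0124), against 1.63, and the IGF arrays of Rab25 cells, at 8.11 and 9.07, came close to the TGF beta arrays at 8.69 and 9.17. RGCC and KCNJ2, which fell against starved cells, differed from EGF and IGF by -0.23 (limma adjusted p = 0.365) and -0.36 (limma adjusted p = 0.0755). CITED2 and DAB2 had -0.26 and -0.13, and neither passed.

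Of the 24 NF-kB cytokines and chemokines, 16 were lower and 0 higher than with EGF and IGF, with a median of -0.50 against -0.02 for all genes. PTX3 was 1.66 lower on the log2 scale (difference -1.66, SE 0.19), THBD had -1.37 (SE 0.17), CSF3 -1.08 (SE 0.13) and IL1B -0.62 (SE 0.06). For IL1B the EGF and IGF arrays read 13.90 to 14.48 and the TGF beta arrays 13.24 to 13.84, with no overlap. TNFSF15, a cytokine of the TNF family, had -1.16 (SE 0.23, limma adjusted p = 0.0119) against EGF and IGF and -0.51 against starved cells (limma adjusted p = 0.67). The targets list had 21 higher and 2 lower of 46, and collagens 6 higher and 0 lower of 29, where 3.03% of all genes were higher and 5.49% lower. With EGF alone as reference 243 genes passed, with IGF alone 359 and with EGF, IGF and serum together 330.

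**Figure D5:**
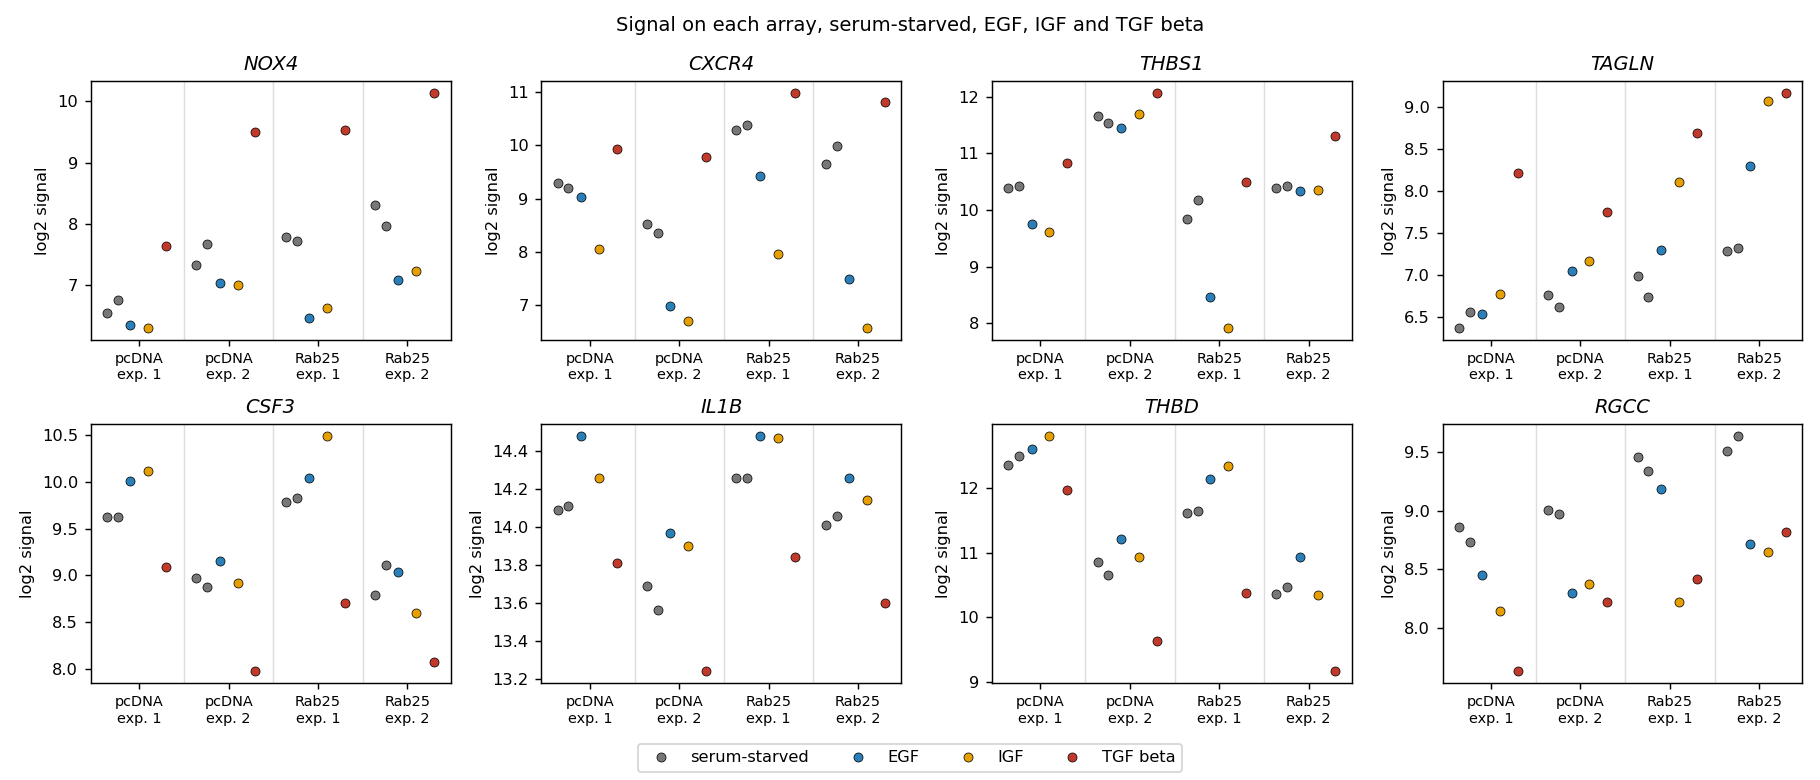
Log2 signal (vertical axis) of 8 genes on the serum-starved (grey), EGF (blue), IGF (orange) and TGF beta (red) arrays, by line and experiment (horizontal axis). For NOX4 and CXCR4 the EGF and IGF points lie below and the TGF beta points above the starved points of each line and experiment; for CSF3 and IL1B the TGF beta points are the lowest of each line and experiment.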

How the data were processed

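RNA of 24 samples was hybridised to 1-colour Affymetrix arrays of the human genome. The deposited values are log2 signals per probe set; the submitters' processing notes name MAS5 and RMA without saying what each was used for, so the correction, summary and scaling steps are not given in the sources used here. Nothing was renormalized. Of 22930 probe sets, 524 controls were left out and 19415 carried 1 gene symbol in the platform annotation, 125 several and 2866 none; those 2991 were fitted apart. The number of arrays limits the precision.

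Each comparison was fitted over all genes by limma's moderated test (limma 3.58.1, R 4.3.3; Benjamini-Hochberg adjustment, threshold 0.05), with line and experiment as blocks and the 12 arrays of TGF beta and starved cells, or the 12 of TGF beta, EGF and IGF cells. The labels give the experiment number, and deviations from the group means correlated between groups of the same number (r = 0.60 to 0.86 over 6 pairs of groups), so experiment was kept as the block. Differences between lines and experiments were interaction terms. The fitting scripts were tested on simulated data. Promoters came from RefSeq (GRCh38.p14), and motifs were searched on both strands.

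Members and gene lists were chosen with earlier results of these data known. Genes were named by a rule: PMEPA1, NEDD9 and DACT1; the 16 largest rises and 16 largest falls of 1 sign in each line and experiment; every called list member; up to 5 members of lowest p of lists without a call; the 4 lowest p values per direction of each interaction; the 4 largest differences per direction against EGF and IGF; and a set of pathway genes whatever their values. This gave 127 genes; other markers stand only as levels or changes of their list. Alternatives were other scalings, variance models, probe set rules, filters, blocks, references, thresholds and subsets of arrays.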

Additional observations from a re-analysis of the deposited data

Results flagged for a closer look

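Among 254 sets of 4 starved arrays of a line checked over the named genes, 6 held an array far from the other 3. Chance flags about 1 in 20 sets where all 4 values are alike in origin. Here the 4 arrays came from 2 experiments, so that rate need not hold. VDR read 9.52 on the pcDNA starved array 2-2, above the others of its line, and SMAD4 read 9.42 on the pcDNA starved array 1-1, below them. In Rab25 starved cells PTX3 read 10.26 and ZNF362 5.17 on array 1-1 and CD68 5.33 on array 1-2, each the lowest of 4, and SMAD4 read 9.56 on array 2-2, the highest of 4.

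The log2 fold change of TGF beta over starved cells differed between experiments for 36 genes by the limma interaction test, 18 of them named. In experiment 2 minus experiment 1, the differences were 2.07 for JAG1, 1.89 for LMCD1, 1.6 for FGFBP1, 1.58 for ADAMTS5, 1.42 for DACT1, 1.33 for SLC19A2, 1.19 for VDR and 1.11 for KCNK3. Smaller positive differences were 0.98 for TUFT1, 0.92 for SOX4, 0.92 for SFRP1 and 0.76 for KDR. Negative differences were -2.28 for SPOCK1, -0.95 for PTPRK, -0.76 for COL4A2, -0.75 for SERTAD2, -0.73 for TGFBI and -0.73 for TOB1.

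Of the 2991 probe sets without a single gene symbol, which no comparison above uses, 37 passed the limma test against starved cells (1.24%), 17 up and 20 down. Among these, the largest rise was 2.14 (SE 0.23) and the largest fall -1.68 (SE 0.07), a larger fall than the -1.25 of FGFBP1.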

How the results depend on the processing

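Over named genes and alternatives, 2597 values kept their side of the threshold and direction, 543 lost the call, 10 gained it and 0 reversed. The 413 genes called against starved cells became 191 with all 24 arrays in the fit, 104 with experiment 1 alone, 93 with pcDNA cells alone, 57 with Rab25 cells alone, 25 with a 2-fold minimum added, and 211 to 437 with 1 array left out. Within pcDNA cells the 84 became 241 with array quality weights, 214 with a variance trend and robust prior, 152 without the lowest 40% of genes, 33 with all 24 arrays and 20 to 116 with 1 array left out. Within Rab25 cells the 168 became 47 with array quality weights, 59 with all 24 arrays and 102 to 268 with 1 array left out. The line difference gave 0 to 8 genes with 1 array left out, and the experiment difference 76 with the trend and 18 to 94 with 1 array left out. Against EGF and IGF, the 1018 became 472 with all 24 arrays, 157 with experiment 1 alone, 68 with pcDNA cells alone, 14 with Rab25 cells alone, 330 with EGF, IGF and serum as reference, 243 with EGF alone, 359 with IGF alone, 40 with a 2-fold minimum and 649 to 901 with 1 array left out. Without the experiment as replicate block, the counts were 78 against starved cells, 2 in pcDNA cells, 9 in Rab25 cells, 0 for the line difference and 99 against EGF and IGF. Fits with fewer arrays have fewer residual degrees of freedom; the cause of the other shifts was not tested. With 1 TGF beta array per line and experiment, leaving it out rests on the spread of the other groups.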
